A study of Mus musculus with 2 samples.

Results

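The cells described here are mouse adipocyte precursors with high combined transcript levels of Smpd3, Daglb, Gas7 and Adm. They were selected on these 4 genes alone. Within each library, filtered cells were ranked by the mean log-scaled level of the 4 genes, and the top 8% were taken as members. This gave 533 members of 6670 filtered cells, 257 in library 1 and 276 in library 2. They were compared mainly with Pi16-high cells, the 3634 non-members with 10 or more transcripts of Pi16 (1812 and 1822 cells). The other 2503 non-members are called remaining cells (1151 and 1352).

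The study profiled single cells from subcutaneous fat of wild-type pups aged 12 days. All pups were cross-fostered, and their foster dams made milk fat with either a high or a low n-6/n-3 ratio of polyunsaturated fatty acids. Adipocyte precursors, fibroblast-like progenitors of the fat cell lineage, were isolated by flow sorting from digested tissue, and 1 library was made per milk condition with droplet chemistry (10x Genomics 3′ version 2) that tags each captured transcript with a unique molecular identifier (UMI). The protocol describes the cells both as fresh and as cryopreserved, thawed and cleared of permeable cells. No label ties a barcode suffix to a milk condition, so the libraries are called 1 and 2 with no diet attached, and the sources used here give neither the number of pups pooled nor their sex. Each condition has 1 library, so no p-value is given, and every interval covers counting error only. The members come from a cut through a continuous score, so they are a range of cells and not a cell type, and doublets were not removed.

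Smpd3 encodes neutral sphingomyelinase, a membrane enzyme that splits sphingomyelin and releases the signalling lipid ceramide. Daglb encodes a lipase that cleaves diacylglycerol to an endocannabinoid monoacylglycerol, and Gas7 encodes an F-BAR protein that binds curved membrane and actin. Adm encodes adrenomedullin, a secreted vasodilator peptide that low oxygen is known to induce and that signals through the receptor Calcrl with a Ramp partner. Pi16 marks the Dpp4-positive progenitors of the fascia-like layer of subcutaneous fat, which lie upstream of committed preadipocytes.

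The rule genes lie on 4 chromosomes (GENCODE vM21, GRCm38): Smpd3 on chromosome 8 from base 106252548 to 106337988, Daglb on chromosome 5 from 143464584 to 143505942, Gas7 on chromosome 11 from 67455437 to 67688990 and Adm on chromosome 7 from 110627661 to 110629820. For the Daglb and Adm genes, and for Duoxa1, a gene outside the rule described further on, the 250 bases before the RefSeq start (GRCm38.p6) are shown. Daglb and Adm are the rule genes with an entry, and Duoxa1 was added after its values were seen. Of 13 genes looked up, 11 had a RefSeq promoter entry; Smpd3 and Gas7 did not. Capitals mark matches, on either strand, to 7 short motifs. These were ACGTG with GCGTG (cores of the hypoxia response element), TGACGTCA (the cyclic AMP response element), TGANTCA (the AP-1 site), GGAATG (the TEAD site), CCAAT (the CCAAT box) and GGGCGG (the GC box). The Daglb stretch is chr5:143464243-143464492, plus strand. The Adm stretch is chr7:110627407-110627656, plus strand. The Duoxa1 stretch is chr2:122313731-122313980, minus strand.
Daglb: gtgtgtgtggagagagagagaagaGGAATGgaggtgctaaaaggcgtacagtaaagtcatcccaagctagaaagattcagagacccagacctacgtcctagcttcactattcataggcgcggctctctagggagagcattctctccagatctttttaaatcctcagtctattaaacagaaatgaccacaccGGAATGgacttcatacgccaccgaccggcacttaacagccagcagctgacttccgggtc
Adm: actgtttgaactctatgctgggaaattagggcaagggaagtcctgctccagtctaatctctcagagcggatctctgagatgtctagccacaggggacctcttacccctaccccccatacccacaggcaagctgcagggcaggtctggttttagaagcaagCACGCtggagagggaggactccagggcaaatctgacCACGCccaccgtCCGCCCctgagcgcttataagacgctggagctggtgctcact
Duoxa1: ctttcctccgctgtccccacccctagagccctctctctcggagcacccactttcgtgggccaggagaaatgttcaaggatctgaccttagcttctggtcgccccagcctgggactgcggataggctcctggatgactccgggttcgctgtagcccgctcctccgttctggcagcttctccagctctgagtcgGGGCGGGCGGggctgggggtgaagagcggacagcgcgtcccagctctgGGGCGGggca
The Daglb stretch held GGAATG at 226 to 221 and at 59 to 54 bases before the start. This motif occurred in 12.6% of 32851 promoter stretches of the same length. The Adm stretch held GCGTG at 90 to 86 and 54 to 50 bases before the start, and 28.2% of all stretches held it. Adm also held 1 GC box and Duoxa1 held 3, of which a pair overlap. The GC box occurred in 32.7% of stretches. The letters ACGTG (in 16.6% of stretches), the cyclic AMP response element (1.55%), the AP-1 site (6.75%) and the CCAAT box (33.8%) had no match in these 3 windows. A match is a run of letters, not a shown site. No motif was shared by all 3 windows, and Adm and Duoxa1 shared the GC box.

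The members' median depth was near that of Pi16-high cells, but they included more shallow cells. The median was 13375 UMIs per cell in library 1 and 12953 in library 2, beside 13927.5 and 13186.5 in Pi16-high cells and 10993 and 10310.5 in remaining cells. The 5th percentile was 5136.6 and 5540 UMIs in members and 7392.25 and 8509.05 in Pi16-high cells. Over all barcodes the libraries held 42092816 and 43491307 UMIs. The lowest member score was 0.814 in library 1 and 1.08 in library 2, so the border lay higher in library 2. Within 0.05 of it lay 47 members and 68 non-members in library 1, and 46 and 49 in library 2. Of the barcode sequences, 17 occurred in both libraries, and 1 member carried such a barcode.

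Levels are given as CPM, a gene's summed UMIs over all UMIs of a class in a library, times 1000000. The 4 rule genes were high by choice, and their values describe the members without testing anything. Smpd3 stood at 241 CPM in members of library 1 and 656 CPM in members of library 2, against 33.5 and 92.6 CPM in Pi16-high cells and 13.7 and 34.6 CPM in remaining cells. The members' level was 7.20 and 7.08 times that of Pi16-high cells. All 3 classes were higher in library 2.

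Daglb followed the same order at lower levels, with 122 and 317 CPM in members, 34.3 and 65.9 CPM in Pi16-high cells and 19.9 and 34.8 CPM in remaining cells. Gas7 was the most broadly present of the 4, at 421 and 494 CPM in members, 159 and 216 CPM in Pi16-high cells and 90.8 and 110 CPM in remaining cells. For Smpd3, Daglb and Gas7 the order was members, then Pi16-high cells, then remaining cells in both libraries. Adm did not keep that order: it stood at 270 and 168 CPM in members, 54.5 and 57.5 CPM in Pi16-high cells, and 82.5 and 89.2 CPM in remaining cells.

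**Figure D1:**
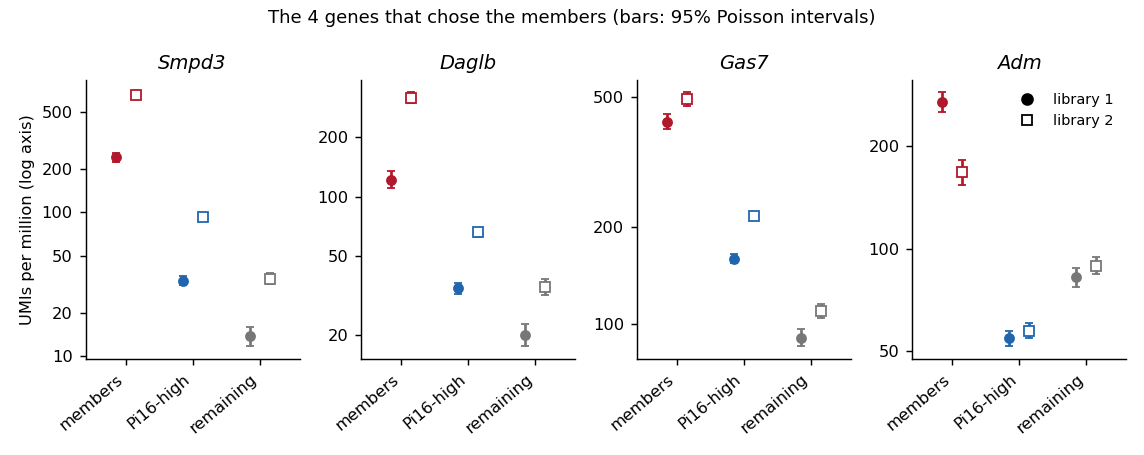
Level of each rule gene in CPM (log axis) in members, Pi16-high and remaining cells of library 1 (filled circles) and library 2 (open squares), with 95% Poisson intervals. Members are highest by choice; among the other cells, Adm alone is higher in remaining cells (82.5 and 89.2 CPM) than in Pi16-high cells (54.5 and 57.5 CPM).

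Per cell these are small counts. The median member held 2 Smpd3 UMIs in library 1 and 6 in library 2, with highest counts of 25 and 45, and the median for Gas7 was 4 and 5. No Adm UMI was seen in 74 of 257 and 104 of 276 members. All 4 genes were detected in 90 members of library 1 and 154 of library 2, and the median sum of their UMIs was 12 and 17, against 3 and 5 in Pi16-high cells. One or more Smpd3 UMIs were found in 80.2% and 97.5% of members (95% exact Clopper-Pearson intervals 74.7 to 84.9% and 94.8 to 99.0%). With each cell thinned to 5000 UMIs the shares were 61.1% and 90.3%. In Pi16-high cells the unthinned shares were 25.9% and 48.0%. Macrophage-gated cells were taken as a rough background for free RNA. They were drawn from all filtered cells, so they can overlap the other classes, and doublets with precursors were not removed. Of these 33 cells, 15.2% held an Smpd3 UMI (5.11 to 31.9%, median depth 8476 UMIs). That interval takes in the Pi16-high share of library 1 but no share of members. For Gas7 the macrophage-gated share was 75.8% (57.7 to 88.9%), close to that of Pi16-high cells in library 1 (76.2%), beside 95.7% and 98.6% of members. For Daglb and Adm it was 30.3% and 24.2%. Whether macrophages make Gas7 themselves was not tested, so its share may not measure free RNA.

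The values on either side of the border are given as a description, since adjacent scores fix how alike these cells are in the rule genes. The 30 members just inside it had 134 and 366 CPM of Smpd3 in libraries 1 and 2, and the 30 cells just outside had 134 and 404 CPM. Gas7 was at 318 and 403 CPM just inside and 278 and 284 CPM just outside.

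Each rule gene was also read in cells chosen by the other 3, again the top 8% of each library. The 4 genes were picked with earlier results of these data known. The values therefore describe how they go together here and are no independent test of it. Each gene was above Pi16-high cells in both libraries, and Adm alone was below remaining cells. Left out of the score, Smpd3 stood at 110 CPM in the chosen cells of library 1 against 48.1 CPM in their Pi16-high comparison cells, and at 403 against 123 CPM in library 2. These are ratios of 2.28 (95% exact interval 2.02 to 2.57) and 3.29 (3.08 to 3.51). Daglb stood at 80.7 against 38.4 CPM and at 235 against 75.7 CPM, ratios of 2.10 (1.83 to 2.41) and 3.10 (2.85 to 3.37). Both enzymes were higher in cells that had been chosen without them. Gas7 gave smaller ratios, 1.32 (1.23 to 1.43) from 236 against 178 CPM and 1.59 (1.49 to 1.69) from 366 against 230 CPM.

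Adm, chosen for by Smpd3, Daglb and Gas7, stood at 90.8 CPM in library 1 and 77.2 CPM in library 2. That was above Pi16-high cells (66.8 and 65.2 CPM), at ratios of 1.36 (1.20 to 1.54) and 1.19 (1.04 to 1.35), and below remaining cells (106 and 97.8 CPM), at ratios of 0.860 (0.756 to 0.976) and 0.790 (0.690 to 0.902). In the top 4% the lower of the Adm ratios over Pi16-high cells was 0.959. Across the filtered cells of a library, which share depth and the scaling to a total, Pearson's r between Smpd3 and Daglb was 0.22 over 3220 cells of library 1 and 0.44 over 3450 cells of library 2. The r between Gas7 and either of these lay between 0.14 and 0.25. For Adm with any of the other 3 it lay between -0.02 and 0.04.

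**Figure D2:**
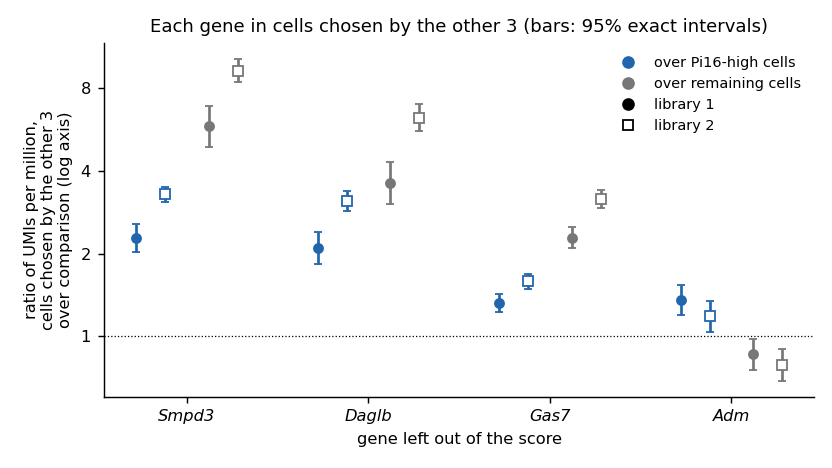
Ratio of each gene's level (log axis) in cells chosen by the other 3 genes over Pi16-high cells (blue) and over remaining cells (grey), library 1 filled and library 2 open, with 95% exact intervals. Smpd3 and Daglb lie above 2 over both, Gas7 at 1.32 and 1.59 over Pi16-high cells, and Adm falls below 1 over remaining cells.

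The members were therefore mixed in what carried their score. In library 1 Gas7 was the largest term in 118 members, Smpd3 in 67, Adm in 56 and Daglb in 16. In library 2 Smpd3 led in 145, Gas7 in 84, Daglb in 28 and Adm in 19. Among Adm-led members 48.2% (library 1) and 57.9% (library 2) had 10 or more Pi16 UMIs, against 83.6% and 82.1% of Smpd3-led members. Adm-led members had 984 and 1210 CPM of Pi16, beside 1657 and 1925 CPM in Smpd3-led members. The cells that entered through adrenomedullin had less of the progenitor marker in both libraries. Ranked over both libraries together, 128 members would have come from library 1 and 405 from library 2.

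The label calls these cells precursors, and markers of such cells were present. Pdgfra, a receptor that defines adipose precursors, stood at 127 and 120 CPM in members. It stood at 114 and 112 CPM in Pi16-high cells and 155 and 165 CPM in remaining cells. Ly6a (Sca-1) stood at 3398 and 3155 CPM, 3098 and 2920 CPM, and 2771 and 2659 CPM in that order of classes. On all 10 precursor markers, collagens among them, the median member held 718 and 715 UMIs per 10000. The median Pi16-high cell held 869 and 913, and the median remaining cell 755 and 749. Members were lowest on this list. On 15 markers of Dpp4-type progenitors, Pi16 and Dpp4 among them, the median member held 104 and 115 UMIs per 10000, the median Pi16-high cell 108 and 113, and the median remaining cell 48.7 and 47.9. On 14 markers of committed preadipocytes these medians were 17.9 and 14.3 in members, 13.8 and 13.1 in Pi16-high cells, and 47.2 and 47.3 in remaining cells. Pi16 itself divides the other classes, so the Dpp4-type list was also read without it. Its other 14 markers had medians of 88.3 and 98.8 in members, 86.2 and 90.7 in Pi16-high cells, and 43.7 and 42.2 in remaining cells. On the Dpp4-type and committed lists the members' medians were nearer to those of Pi16-high cells. In all, 188 and 217 members had 10 or more Pi16 UMIs themselves (73.2% and 78.6%), and Pi16 stood at 1493 and 1762 CPM, below the 2059 and 2129 CPM of the cells gated on it. Dpp4, the surface peptidase that names these progenitors, was at 191 and 207 CPM in members, 204 and 225 CPM in Pi16-high cells and 81.8 and 83.1 CPM in remaining cells.

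Markers of endothelial, macrophage and mural cells were low. The 8 endothelial markers summed to 37.0 and 34.9 CPM in members, 117 and 95.7 CPM in Pi16-high cells and 104 and 124 CPM in remaining cells. The 8 macrophage markers summed to 102 and 19.1 CPM in members, 61.2 and 36.2 CPM in Pi16-high cells and 135 and 65.4 CPM in remaining cells, and the 8 mural markers to 70.6 and 46.7 CPM. The median member held none of the endothelial or macrophage markers in either library. On 10 markers of F3-type stromal cells the median member held 2.23 and 2.02 UMIs per 10000. Pi16-high cells held 2.05 and 1.97, and remaining cells 4.39 and 4.44. F3 itself stood at 61.0 and 57.6 CPM in members, 36.0 and 36.9 CPM in Pi16-high and 65.6 and 60.0 CPM in remaining cells. For 8 markers of Cilp-type matrix fibroblasts the medians were 79.0 and 75.7, 82.4 and 74.6, and 50.2 and 42.8 in that order. Haemoglobin and other erythroid transcripts differed by library, with 5 markers at 896 CPM in members of library 1 and 20.3 CPM in members of library 2.

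Outside the rule, the members differed little from Pi16-high cells in the genes counted. Of 4579 genes with at least 20 CPM in either class in both libraries, 91.4% lay within 1.25-fold in both, and the median log2 fold was 0.03 in library 1 and 0.04 in library 2. No gene (0%) was 2-fold higher in members of both libraries, and 4 (0.0874%) were 2-fold lower. At 1.5-fold, 10 genes (0.218%) were higher and 11 (0.24%) lower; with TMM scaling, which lowers the members' levels slightly, the split was 6 and 12. Folds add 5 CPM to each level. As plain ratios, Hs3st1 stood at 2.14 and 2.55. Genes under the minimum were not counted, among them Duox2 and Mrgprg, at 5.71 and 2.10 CPM in members of library 1. The choice of members used this contrast, so these counts are a description.

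**Figure D3:**
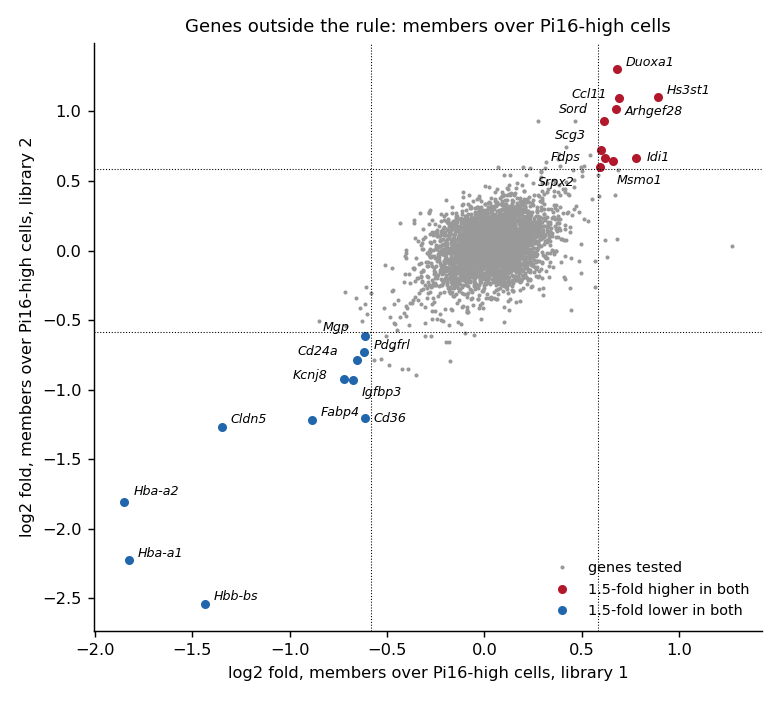
Log2 fold of members over Pi16-high cells in library 1 (horizontal) and library 2 (vertical) for 4579 genes, the rule genes and Pi16 left out. Red marks the 10 genes at least 1.5-fold higher and blue the 11 at least 1.5-fold lower in both libraries (dotted lines); the other genes crowd around 0.

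Hs3st1, a sulfotransferase that modifies heparan sulfate, stood at 31.9 and 35.8 CPM in members and at 14.9 and 14.0 CPM in Pi16-high cells, ratios of 2.14 (1.71 to 2.66) and 2.55 (2.06 to 3.15). Duoxa1, the maturation factor of the hydrogen peroxide-forming oxidase Duox1, stood at 22.8 and 54.3 CPM against 12.4 and 19.0 CPM, ratios of 1.85 (1.42 to 2.38) and 2.85 (2.39 to 3.39). Arhgef28 stood at 21.0 and 38.8 CPM against 11.3 and 16.7 CPM. Sord, the sorbitol dehydrogenase that makes fructose, stood at 41.5 and 74.3 CPM against 25.4 and 36.5 CPM. These 4 genes were also above the remaining cells in both libraries. Hs3st1, Duoxa1 and Arhgef28 were under 20 CPM in Pi16-high cells of both libraries and reached the level minimum through the members alone, so they could enter only as higher, while 7 of the 10 genes reached it in both classes. Of the 11 lower genes, 7 were under 20 CPM in members of 1 library or both and entered through Pi16-high cells there.

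When the members were limited to the 405 with 10 or more Pi16 UMIs, so that both classes met the same gate, 5 genes were 1.5-fold higher: Arhgef28, Duoxa1, Hs3st1, Sord and Aif1l, an actin-bundling protein. The other 6 of the 10 genes did not pass under it. Of these Idi1, Msmo1 and Fdps are enzymes of cholesterol synthesis, Ccl11 is the eosinophil chemokine eotaxin, Scg3 a granin and Srpx2 a secreted sushi-repeat protein. Idi1 was at 49.0 and 41.4 CPM in members, 26.5 and 24.2 CPM in Pi16-high cells and 67.4 and 75.4 CPM in remaining cells. Ccl11 stood at 225 and 410 CPM in members, 138 and 189 CPM in Pi16-high cells and 287 and 375 CPM in remaining cells. Scoring cells after thinning each to 5000 UMIs left only Hs3st1 and Scg3 of the 10, with Duoxa1 among those lost.

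Against both other classes at once, 19 genes (0.415%) were at least 1.25-fold higher in members of both libraries, an added comparison chosen after the values were seen. Besides Hs3st1, Duoxa1, Arhgef28 and Sord they included Aif1l, at 74.8 and 134 CPM in members, 52.8 and 67.5 CPM in Pi16-high cells and 22.8 and 29.8 CPM in remaining cells. Glce, an epimerase of heparan sulfate synthesis, stood at 53.8 and 81.9 CPM, 40.2 and 48.8 CPM, and 22.3 and 24.2 CPM in that order of classes. Ext1, which polymerizes heparan sulfate chains, stood at 146 and 171 CPM, 107 and 128 CPM, and 73.7 and 80.4 CPM. All 3 genes followed the order members, Pi16-high cells, remaining cells. Rftn1, a lipid raft protein, stood at 46.6 and 58.1 CPM in members against 29.5 and 38.3 CPM in Pi16-high cells. Itga11, a subunit of a collagen-binding integrin, stood at 38.5 and 54.6 CPM against 25.8 and 34.3 CPM. The others were D630033O11Rik, Serpina3c, Gprc5b, Lynx1, Fam124a, Gpsm3, C2cd2, Hn1, Ric8 and BC005624. Arhgef28, C2cd2, Duoxa1, Hs3st1 and Lynx1 were under 20 CPM in Pi16-high cells of 1 library or both. These 5 of the 19 entered through the members there.

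The levels graded with the score on both sides of the border. In library 2 Duoxa1 went from 85.2 CPM in the top 2% of cells to 34.8 CPM in the band from 4 to 8%, 23.4 CPM just below the border (8 to 12%) and 9.20 CPM in the lowest band (60 to 100%). In library 1 it went from 38.5 CPM through 17.4 and 16.5 CPM to 7.45 CPM. Aif1l went from 101 to 34.4 CPM in library 1 and from 160 to 39.2 CPM in library 2 between the highest and lowest bands. No step at the border was seen for either gene in either library beyond the intervals. The mix of cells changed as well. In the band from 4 to 8%, 74.4% and 81.9% of cells had 10 or more Pi16 UMIs, and in the lowest band 49.9% and 39.3%. Duoxa1 and Aif1l were higher in Pi16-high than in remaining cells, and the part of this mix in the decline was not tested.

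**Figure D4:**
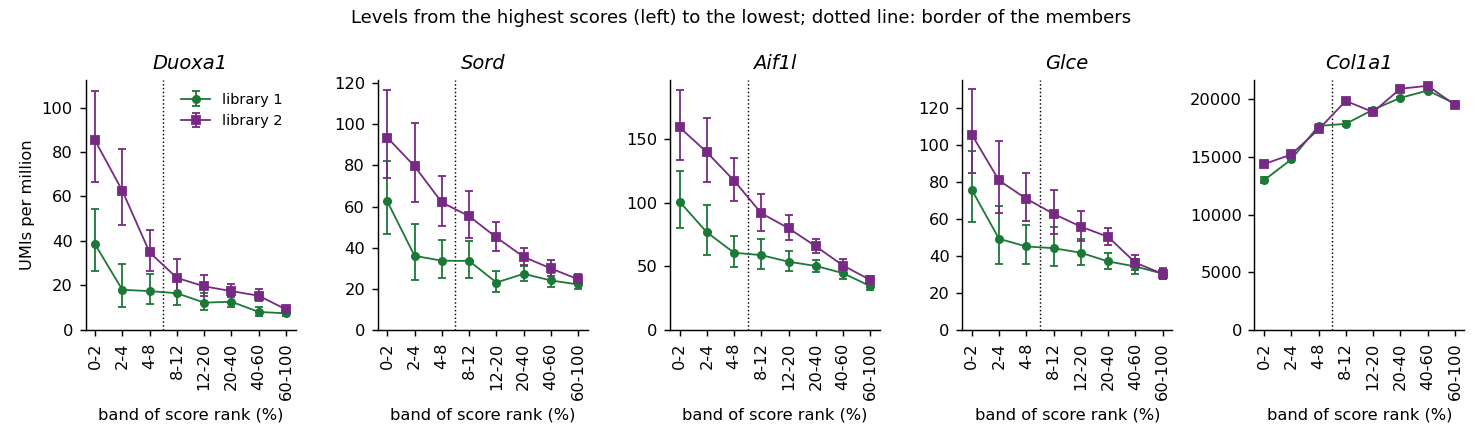
Levels in CPM of Duoxa1, Sord, Aif1l, Glce and Col1a1 in bands of score rank, from the highest 2% (left) to the lowest 40%, for library 1 (circles) and library 2 (squares) with 95% Poisson intervals; the dotted line is the border of the members. The first 4 genes decline from the highest band to the lowest, within the members and past the border. Col1a1 climbs within the members, from 12977 and 14380 CPM in the highest band to 17698 and 17394 CPM at 4 to 8%. It is at 20771 and 21185 CPM in the band from 40 to 60% and at 19646 and 19530 CPM in the lowest. Fewer cells of the lowest band had 10 or more Pi16 UMIs (49.9% and 39.3%) than in the band from 4 to 8% (74.4% and 81.9%).

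Sord, Duox2, Duoxa2, Duoxa1 and Duox1 are neighbours on chromosome 2 (GENCODE vM21, GRCm38, from base 122234749 to base 122347972), and they were looked at together after Duoxa1 and Sord had been seen. Duox1 and Duox2 are NADPH oxidases that form hydrogen peroxide, and Duoxa1 and Duoxa2 are their maturation factors. By their RefSeq starts Duox2 and Duoxa2 lie head to head 673 bases apart, and Duoxa1 and Duox1 1942 bases apart. In library 2 all 5 were highest in members. Duox2 stood at 31.4 CPM in members (25.7 to 38.0), 5.23 CPM in Pi16-high cells and 1.98 CPM in remaining cells. Duox1 stood at 16.7, 5.31 and 1.91 CPM, and Duoxa2 at 4.99, 1.28 and 0.440 CPM.

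In library 1 the same genes were scarcer. Duox2 stood at 5.71 CPM in members (19 UMIs, 3.44 to 8.92) and 0.988 CPM in Pi16-high cells. Duox1 stood at 4.21 CPM (2.30 to 7.06) and 3.36 CPM (2.68 to 4.15), which overlap, and Duoxa2 had 0 UMIs in members, with an upper limit of 1.11 CPM. Of the flanking genes, B2m was at 864 CPM (833 to 897) and 1045 CPM (1011 to 1080) in members and at 803 CPM (792 to 815) and 903 CPM (891 to 915) in Pi16-high cells, a small difference beyond the intervals. Shf, on the other side, was at 3.00 and 3.82 CPM in members and 3.44 and 3.83 CPM in Pi16-high cells. A Duox2 UMI was found in 5.84% and 24.6% of members, 1.16% and 6.31% of Pi16-high cells and 0 of 33 macrophage-gated cells (up to 10.6%). With cells thinned to 5000 UMIs the members' shares were 3.28% and 14.2%. Duoxa1 and Duoxa2 overlap by their annotated ends on opposite strands, and no source used here says whether counting used the strand.

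**Figure D5:**
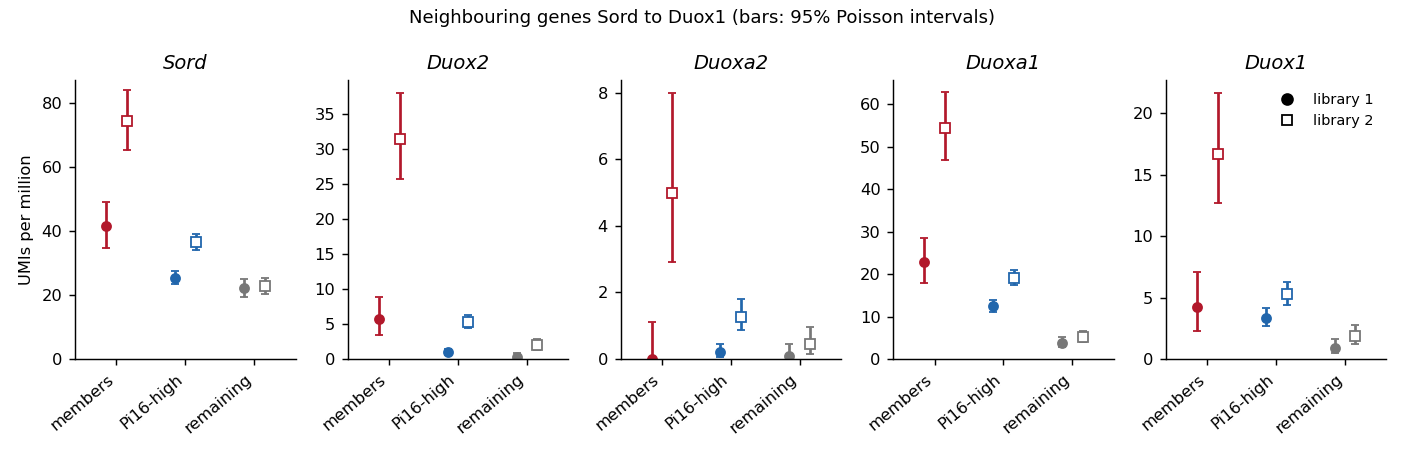
Levels in CPM of Sord, Duox2, Duoxa2, Duoxa1 and Duox1, in chromosomal order, in members, Pi16-high and remaining cells of library 1 (filled) and library 2 (open), with 95% Poisson intervals. In library 2 members are highest for all 5, as with Duox2 at 31.4 CPM against 5.23 CPM; in library 1 Duox1 intervals overlap and Duoxa2 is at 0.

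Mrgprg, a Mas-related G protein-coupled receptor, was also singled out after its values were seen. In library 2 it stood at 49.6 CPM in members (42.4 to 57.7), 3.21 CPM in Pi16-high cells and 1.76 CPM in remaining cells, and 15.6% of members held a UMI of it, or 10.1% with cells thinned to 5000 UMIs, beside 0 of 33 macrophage-gated cells. In library 1 it had 7 UMIs in members, 2.10 CPM (0.846 to 4.33), against 0.158 CPM. Most of its UMIs in library 2 members, 128 of 169, were in Smpd3-led cells. These cells were 145 of the 276 members there and held 1789922 of the members' 3405666 UMIs of all genes. Its neighbour Osbpl5 stood at 29.4 and 27.3 CPM in members and 21.3 and 21.0 CPM in Pi16-high cells.

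The 4 genes that were 2-fold lower in members were 3 haemoglobin genes and Cldn5, a tight junction protein of endothelium. Hbb-bs stood at 500 and 8.22 CPM in members, and at 1362 and 72.0 CPM in Pi16-high cells. A few comparison cells held most of it: 10 of them carried 64.9% (library 1) and 86.1% (library 2) of Hbb-bs UMIs of Pi16-high cells, while the median per cell was the same in both classes, 6 UMIs in library 1 and 0 in library 2. Without cells of 100 or more haemoglobin UMIs or 3 or more UMIs of Pecam1, Cdh5, Cldn5 and Gpihbp1, Hbb-bs stood at 501 against 483 CPM and 8.32 against 10.6 CPM. Cldn5, at 14.4 and 11.2 CPM in members against 44.5 and 33.9 CPM, then stood at 13.6 against 11.2 CPM and 11.3 against 10.3 CPM. No gene was 2-fold lower without those cells. They were picked by their own haemoglobin and Cldn5 UMIs, so for these genes the loss was largely fixed by the choice. Fabp4, a fatty acid carrier of adipocytes and endothelium, was at 243 and 163 CPM in members against 453 and 386 CPM, and without those cells at 242 against 223 CPM and 163 against 191 CPM. Hbb-bs and Fabp4 did not pass 1.5-fold without the cells left out. Reads shared between near-identical Hba-a1 and Hba-a2 could not be split with certainty.

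Lower levels that remained without those cells were those of Kcnj8, Igfbp3, Cd24a and Pdgfrl, 4 of the 11 genes. Kcnj8, a subunit of an ATP-sensitive potassium channel, stood at 54.1 and 30.5 CPM in members against 92.6 and 62.3 CPM. Igfbp3, which binds insulin-like growth factors, stood at 169 and 135 CPM against 274 and 263 CPM, ratios of 0.618 (0.567 to 0.674) and 0.515 (0.467 to 0.566). Under the Pi16 gate neither passed 1.5-fold in both libraries, though the mean log2 fold moved little, from -0.82 to -0.71 for Kcnj8 and from -0.80 to -0.66 for Igfbp3.

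Both chains of type I collagen were lower than in Pi16-high cells in both libraries and close to remaining cells. Col1a1 was at 15791 and 16096 CPM in members, 21364 and 22462 CPM in Pi16-high cells and 16750 and 16116 CPM in remaining cells. Its partner chain Col1a2 stood at 16062 and 16251 CPM, 22164 and 23326 CPM, and 16493 and 16173 CPM. Limited to members with 10 or more Pi16 UMIs, Col1a1 was at 16359 and 16868 CPM. Col3a1, of type III collagen, was closer to Pi16-high cells, at 29037 and 29924 CPM in members against 32317 and 34044 CPM.

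Below both other classes by 1.25-fold were 15 genes (0.328%). Besides Cldn5, Fabp4, Cd36 and Mgp they included Penk, the precursor of enkephalins, at 77.8 and 68.7 CPM in members, 118 and 122 CPM in Pi16-high cells and 133 and 140 CPM in remaining cells. Tgfbi, a matrix protein induced by TGF-beta, stood at 133 and 96.9 CPM, 187 and 161 CPM, and 278 and 276 CPM. Col15a1, a basement membrane collagen of committed preadipocytes, stood at 44.2 and 33.8 CPM, 59.6 and 65.0 CPM, and 243 and 295 CPM. The others were Cav1, Hist1h1c, Kazald1, 1500015O10Rik, Gas1, Mfap4, Ldb2 and Col16a1. Without cells rich in haemoglobin or endothelial transcripts, Cldn5, Fabp4, Cd36 and Mgp did not pass 1.5-fold against Pi16-high cells. The 15 genes were not counted again without those cells. Cav1, Cd36, Cldn5, Hist1h1c, Kazald1, Ldb2 and Mgp were under 20 CPM in members of 1 library or both. These 7 entered through Pi16-high cells there.

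Of 464 measured genes on 26 lists, 1 was 1.5-fold higher in both libraries (Ccl11) and 2 were lower (Igfbp3 and Kcnj8). These shares, 0.216% and 0.431%, lie near the 0.218% and 0.24% over all genes. None of the 3 is on the lists drawn up around the rule genes. Of 16 measured sphingolipid enzymes and receptors besides Smpd3, 0 passed in either direction, with median log2 folds of 0.04 and 0.02 beside 0.03 and 0.04 over all genes. The ceramide-forming Smpd1 was at 35.8 and 27.3 CPM in members and 29.1 and 28.1 CPM in Pi16-high cells, and the desaturase Degs1 at 102 and 109 CPM against 104 and 102 CPM. Of 5 measured genes of endocannabinoid and monoglyceride metabolism 0 passed, with Mgll, the lipase that degrades monoacylglycerol, at 112 and 127 CPM against 117 and 122 CPM. Among 9 measured F-BAR and actin membrane genes 7 were above 0 in both libraries and 0 passed, with median log2 folds of 0.12 and 0.09.

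For Adm, the receptor Calcrl stood at 17.4 and 22.9 CPM in members and 17.8 and 23.3 CPM in Pi16-high cells. Its partner Ramp2 stood at 254 and 277 CPM against 232 and 234 CPM, and the scavenging receptor Ackr3 at 288 and 295 CPM against 263 and 283 CPM. Of 9 measured hypoxia response genes 0 passed in either direction. Vegfa, the vascular growth factor among them, stood at 27.9 and 28.2 CPM in members and 26.4 and 30.2 CPM in Pi16-high cells. Median log2 folds of the hypoxia list were 0.07 and -0.05.

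Lipid and metabolic lists had medians near those of all genes. Of 15 fatty acid oxidation genes 0 passed, with median log2 folds of 0.05 and 0.06, and of 12 mitochondrially encoded genes 0 passed, with medians of 0.03 and 0.10. Among 13 lipid synthesis and storage genes 0 passed, though Hmgcs1, an early enzyme of cholesterol synthesis, stood at 102 and 114 CPM against 77.7 and 70.4 CPM in Pi16-high cells and 149 and 158 CPM in remaining cells. Adipogenic regulators (0 of 15 measured) and Wnt ligands and antagonists (0 of 7) did not pass either. The Wnt inhibitor Sfrp1 stood at 54.1 and 72.2 CPM in members and 35.6 and 43.0 CPM in Pi16-high cells, and the ligand Wnt2 at 142 and 149 CPM against 177 and 199.7 CPM. The Wnt list had median log2 folds of -0.02 and -0.38.

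Of the signalling and stress lists, 7 of 8 measured interferon response genes were above 0 in both libraries and 0 passed 1.5-fold, with median log2 folds of 0.15 and 0.18. The 18 inflammatory and chemokine genes had medians of 0.20 and -0.09, with Ccl11 the 1 gene past 1.5-fold. Ccl2, a monocyte chemokine, stood at 2281 and 2476 CPM in members and 1834 and 2191 CPM in Pi16-high cells. The 18 immediate early and heat shock genes had medians of 0.17 and -0.11 and 0 passed. Among them Fos stood at 1584 and 986 CPM in members and 1189 and 1138 CPM in Pi16-high cells, so its direction differed between the libraries. Of 17 growth factors and receptors 1 was lower (Igfbp3), with medians of 0.00 and -0.13, and of 9 ion channels and pumps 1 was lower (Kcnj8), with medians of 0.05 and -0.10.

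Matrix lists leaned both ways. Of 21 collagens and crosslinking genes 10 were above and 11 below 0 in both libraries, and of 29 elastic fibre, proteoglycan and glycoprotein genes 12 and 13, with 0 past 1.5-fold in either list. Sparc, a collagen-binding glycoprotein, stood at 15916 and 17464 CPM in members and 19217 and 20187 CPM in Pi16-high cells. The 17 matrix proteases and inhibitors had median log2 folds of -0.04 and -0.08. None passed among 17 BMP and TGF-beta genes (0.04 and 0.09), 10 Notch and guidance genes (-0.00 and -0.13), 15 patterning transcription factors (0.09 and 0.04), 8 SRF, YAP and contractile genes (0.10 and 0.03) or 7 oxylipin and prostanoid genes (0.00 and 0.03). The same held for 10 glycolysis genes (-0.03 and 0.03), 82 ribosomal protein genes (0.01 and 0.00) and 75 nuclear respiratory chain genes (0.02 and 0.03).

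Between the libraries, the members differed in few of the genes counted. Counted genes met the 20 CPM minimum in both libraries and had 50 CPM or more in either library's members. Genes confined to 1 library were thus left out. Of the 2430 genes counted, 6 (0.247%) were 1.5-fold higher in library 2 and 24 (0.988%) in library 1. Among these, with the rule genes left out, Duoxa1 differed most toward library 2, at 22.8 and 54.3 CPM, a log2 difference of 1.09, beside 0.47 in Pi16-high cells and 0.20 in remaining cells. Sord differed by 0.77, 0.45 and 0.03 and Aif1l by 0.80, 0.33 and 0.32 in the same order of classes. Ccl11 and Rgcc, a regulator of the cell cycle, were the other named genes higher in library 2, with log2 differences of 0.85 and 0.83 in members. Toward library 1 the haemoglobin genes led, with Hbb-bs at 500 and 8.22 CPM. Hbb-bt, at 82.3 and 2.35 CPM, was under the 20 CPM minimum in library 2 and was not counted. Mfap4, a microfibril protein, stood at 287 and 115 CPM, and the Wnt antagonist Sfrp4 at 520 and 259 CPM. The rule genes differed in the same cells by 1.43 for Smpd3 and 1.35 for Daglb (log2, library 2 over library 1), and -0.67 for Adm. Milk condition, library and pups cannot be told apart here.

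The share of Xist-positive cells also differed. A cell was called Xist-positive with 4 or more Xist UMIs and no UMI of Ddx3y, Eif2s3y, Kdm5d or Uty, and Y-positive with such a UMI and at most 1 of Xist. Of the members called either way 67.5% were Xist-positive in library 1 (59.8 to 74.5%, 169 cells) and 44.3% in library 2 (37.3 to 51.4%, 201 cells). In Pi16-high cells these shares were 61.9% and 58.9%, and in remaining cells 63.8% and 60.0%. Only the members of library 2 had an interval below those of the other classes. In library 2, Xist-positive members had 43.5 CPM of Duoxa1 (31.8 to 58.2) and Y-positive members 57.9 CPM (46.2 to 71.7), and Mrgprg stood at 34.8 CPM (24.4 to 48.2) and 60.0 CPM (48.0 to 74.0). Adm differed beyond the intervals there, at 218 CPM (190 to 248) in Xist-positive and 122 CPM (105 to 141) in Y-positive members. Sord stood at 48.8 CPM (38.3 to 61.4) and 22.4 CPM (12.8 to 36.4) in library 1. In library 2 it leaned the other way, at 62.9 CPM (48.5 to 80.1) and 83.4 CPM (69.2 to 99.6). The part of this share in the differences between libraries was not tested.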

How the data were processed

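The authors deposited 1 matrix of raw UMI counts, genes by barcodes, with no normalization (27998 genes, 6905 barcodes, 2 barcode suffixes). The tools named in the submitters' processing notes are Cell Ranger, without a version, and Seurat 3.0.1, with mm10 as genome build. No source used here says what each step did or what was filtered before deposit. Per the labels, 3000 sorted cells were loaded per condition, beside 3321 and 3584 barcodes in the matrix.

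Barcodes were kept with at least 500 genes, at most 10% mitochondrially encoded UMIs and fewer than 2 UMIs of Mki67 and Top2a together, which left 3220 and 3450. No doublet caller was run. The score is the mean over Smpd3, Daglb, Gas7 and Adm of log(1 + 10000 × UMIs / total). Counts were summed per class and library and divided by the summed total (CPM). Folds add 5 CPM to each level; ratios add nothing. Genes needed 20 CPM in members or Pi16-high cells in both libraries. Intervals are 95% exact Poisson, conditional exact or Clopper-Pearson intervals. Macrophage-gated cells had 10 or more UMIs of C1qa, C1qb, C1qc, Lyz2, Pf4 and Csf1r together. The Xist and Y-linked classes were set after the data were seen.

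Members, gene lists and markers were chosen with earlier results of these data known. Named genes were to be at least 2-fold apart in both libraries with 50 CPM. Few passed, so 1.5-fold at 20 CPM was used instead, chosen after seeing the data, as was 1.25-fold against both classes. Between libraries, genes needed 50 CPM and 1.5-fold on top of the 20 CPM minimum, and up to 5 each way were named. Of each list the rule took genes 2-fold apart and the 2 of highest level, and only some of the latter are printed. Smpd1, Calcrl, Vegfa, Sfrp1, Wnt2, Mrgprg, the Duox genes and Glce lie outside the rule and were chosen after their values were seen. Pref1 and Trac were not found by symbol. Alternatives covered the cut, the comparison cells, depth, filters, prior, level minimum, scaling (TMM, edgeR 4.0.16, used for scaling only) and each library alone. The fold code was tested on simulated counts. Tools were Python 3.11.15, numpy 2.4.6, scipy 1.17.1, pandas 2.3.3 and matplotlib 3.10.9.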

Additional observations from a re-analysis of the deposited data

How the results depend on the processing

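With 1 library per condition, no replicate could be left out. No paired analysis was possible because the barcode suffixes carry no replicate number. The counts by fold depended on the choices. No gene was 2-fold higher in both libraries, and 1 was with the comparison cells chosen by scaled Pi16, 1 with a prior of 1 CPM, 1 in library 1 alone and 4 in library 2 alone. The 4 genes 2-fold lower became 9 against all other cells, 7 at a level minimum of 10 CPM, 1 at 50 CPM, and 0 with scaled Pi16, without the top 2% of UMIs or without cells rich in haemoglobin or endothelial transcripts.

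The 10 genes 1.5-fold higher became 5 in members with 10 or more Pi16 UMIs, 21 in the top 4%, 4 in the top 16%, 2 with a thinned score, 2 at 50 CPM, 6 with TMM, 17 in library 1 alone, 24 in library 2 alone, 3 without Smpd3 in the score and 6 without Adm. The 11 genes 1.5-fold lower became 37 against all other cells, 5 with scaled Pi16, 5 in the top 16%, 6 without the top 2% of UMIs, 4 without haemoglobin-rich or endothelial-rich cells, 5 with a thinned score, 19 at 10 CPM, 6 at 50 CPM, 20 in library 1 alone and 26 in library 2 alone. Among the list genes, 1 higher became 0 (all other cells, Pi16 gate, top 16%, thinned score, score without Smpd3 or without Adm), 2 (10 CPM, score without Daglb or without Gas7), 3 (prior of 1 CPM), 4 (either library alone) or 6 (top 4%). The 2 lower became 0 (Pi16 gate, top 16%, thinned score), 4 (top 4%, score without Smpd3 or without Daglb), 5 (all other cells) or 7 (library 2 alone).

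The Cldn5 log2 fold changed sign, to 0.0165 without the top 2% of UMIs and 0.14 without cells rich in haemoglobin or endothelial transcripts, and the lower Adm ratio was 0.959 in the top 4%. The share of library 1 members with a Sord UMI was 33.1%, and 18.0% with cells thinned to 5000 UMIs. The causes of these changes were not tested. Of the values of single genes under the alternatives, 286 stayed close (a log2 fold within 0.2, or a ratio within its counting interval), 63 moved further and 3 changed sign. The 286 include folds under other level minimums, which cannot move a single gene's fold and so stayed the same by construction. Genes under about 20 CPM rest on few UMIs in members, as with 19 of Duox2 in library 1.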
